A study of Mus musculus with 10 samples.

Results

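The circadian clock genes Clock, Arntl, Per1, Per2, Per3, Cry1, Cry2, Nr1d1, Nr1d2 and Dbp were measured in the hippocampus of Dp1Rhr mice and of their control littermates. They were chosen by symbol, as the core of the clock with 1 of its outputs, and make up 10 of the 19938 genes that could be named and tested. Each had 1 probe set, that is, 1 group of probes read as a single value. The arrays held RNA from both whole hippocampi of 10 male mice aged 16 weeks, 5 Dp1Rhr and 5 control, with 1 array per mouse. Dp1Rhr mice model part of the trisomy of Down syndrome with a segmental duplication on chromosome 16, so that the genes between Cbr1 and Fam3b stand at 3 copies. Controls carry 2 copies and came from the cross of the Dp5Yah and Dp1Rhr lines, so that they were littermates of a cross with further genotypes, which were not analysed here. The duplication is carried by every cell of the animal. The labels give C57BL/6N as the background of both groups and a cycle of 12 h of light and 12 h of darkness with lights on at 7 in the morning. They do not give the hour at which the hippocampi were taken. None of the 10 genes lies on chromosome 16, so all of them were at normal copy number in both groups.

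The clock is a feedback loop of transcription. CLOCK and ARNTL (also called BMAL1) pair on E-boxes and switch on the Per, Cry and Nr1d genes and Dbp. PER and CRY proteins then block that pair, and the NR1D receptors (REV-ERB) repress Arntl through ROR response elements, for which the activating ROR receptors compete. In rhythmic tissues Arntl RNA therefore peaks nearly opposite to Dbp and to the Per genes, and the loop also runs in the hippocampus, outside the suprachiasmatic pacemaker. Per1 is in addition an immediate early gene in neurons, induced within minutes by activity through cAMP response elements.

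Words that match the elements of this loop stood in some of the promoters of the genes; a match describes the sequence and does not show binding. RefSeq windows (GRCm38.p6), from 250 bases before to 50 bases after a transcript start, were given for 9 of the 10 genes, in 13 windows, and Per2 had none. Both strands were searched for the E-box CACGTG, the E-prime box CACGTT or AACGTG, the D-box bound by DBP (TTATGTAA, TTACATAA or TTACGTAA), the cAMP response element TGACGTCA and the ROR response element, and none of these words overlapped another in the windows shown. An E-box was found for 2 genes, an E-prime box for 3 (Cry1, 79 bases before the start, Cry2, 166 bases before, and Nr1d1, 28 bases before), a D-box for 1, a ROR response element for 1 and the full cAMP response element for 0. These counts are of genes, some of which had more than 1 window, and the E-box stood in 2 of the 13 windows. The shares that follow are of windows. Over all 32851 windows of the same length, 7.15% held the E-box, 4.68% an E-prime box, 1.06% a D-box, 1.79% a cAMP response element and 0.384% a ROR response element. The 4 sequences below are shown because they hold matches to the elements known for DBP, for CLOCK and ARNTL, and for the NR1D and ROR receptors, and the capitals mark the matches.
Per3, chr4:151044666-151044915, minus strand, 250 bases before the start, with a D-box 205 and another 158 bases before it: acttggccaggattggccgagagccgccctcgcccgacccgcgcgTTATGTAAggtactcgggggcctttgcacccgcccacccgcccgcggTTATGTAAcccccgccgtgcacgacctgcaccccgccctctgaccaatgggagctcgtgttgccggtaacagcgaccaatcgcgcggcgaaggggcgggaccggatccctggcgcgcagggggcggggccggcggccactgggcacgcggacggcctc
Per1, chr11:69098699-69098948, plus strand, 250 bases before the start, with an E-box 166 bases before it: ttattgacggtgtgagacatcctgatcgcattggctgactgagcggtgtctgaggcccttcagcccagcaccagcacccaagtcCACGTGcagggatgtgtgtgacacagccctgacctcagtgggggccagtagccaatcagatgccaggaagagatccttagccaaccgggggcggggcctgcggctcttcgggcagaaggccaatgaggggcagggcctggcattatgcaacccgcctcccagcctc
Cry1, chr10:85185055-85185304, minus strand, 250 bases before the start, with an E-prime box 79 and an E-box 60 bases before it: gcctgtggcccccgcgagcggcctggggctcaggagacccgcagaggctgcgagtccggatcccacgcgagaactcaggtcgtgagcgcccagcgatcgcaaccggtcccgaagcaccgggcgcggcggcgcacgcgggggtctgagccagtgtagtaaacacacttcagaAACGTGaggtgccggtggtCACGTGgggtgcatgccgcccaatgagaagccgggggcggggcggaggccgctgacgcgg
Arntl, chr7:113207528-113207557, plus strand, 30 bases around a ROR response element that begins 27 bases after the start: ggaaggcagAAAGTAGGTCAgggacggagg

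All values are log2 signals as the authors normalised them, so a difference of 1 is a doubling. Array medians ranged between 6.77 and 6.83, and the correlation of any pair of arrays was 0.996 or more. Each of 13 hippocampal marker genes, such as the dentate gyrus factor Prox1 and the pyramidal cell factor Neurod6, was measured, and their mean was 9.79 to 9.83 in Dp1Rhr and 9.76 to 9.84 in control. By limma, described below, 1 of the 13 was called higher in Dp1Rhr (0.627% of all genes) and 0 lower (0.176%). It was Tdo2, at a log2 fold change of 0.25 (adjusted p = 0.0210), and its groups did not overlap. At an unadjusted p under 0.05, 1 was higher (8.55% of all genes) and 2 lower (6.44%), Lct and Pou3f1. Control replicates 2 and 3 stood apart from the other arrays in 2 further lists. The mean of 14 choroid plexus genes, such as the thyroid hormone carrier Ttr and the potassium channel Kcnj13, was 8.44 to 9.39 in Dp1Rhr and 6.81 to 8.95 in control, and these 2 control arrays were the lowest, at 6.81 and 6.98. The mean of 11 immediate early genes, such as Fos and Nr4a1, was 7.98 to 8.20 in Dp1Rhr and 8.27 to 9.19 in control, and the same 2 control arrays were the highest, at 8.86 and 9.19. Values without these 2 arrays are therefore given beside the results they touch. In RNA of a whole tissue, fewer cells of a type and less RNA per cell cannot be told apart.

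None of the 10 clock genes differed between Dp1Rhr and control by limma, a moderated linear model with p-values adjusted over all genes by the Benjamini-Hochberg method. At an adjusted p of 0.05, 0 of 10 were higher, against 0.627% of all genes, and 0 of 10 were lower, against 0.176%. At an unadjusted p under 0.05, 3 were lower (Arntl, Per1 and Cry2), where 6.44% of all genes were lower, and 0 were higher, where 8.55% of all genes were higher. FCROS, the rank method of the study, which takes fixed tails of a score, placed 2 of the 10 in its lower tail (Arntl and Per1), which held 1.99% of all genes, and 0 in its upper tail, which held 3.4%. For 0 of the 10 did the arrays of the groups not overlap, which was so for 3.52% of all genes. By sign, 7 were lower and 3 higher in Dp1Rhr, and the median log2 fold change was -0.07, against -7.57e-05 over all genes.

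**Figure D1:**
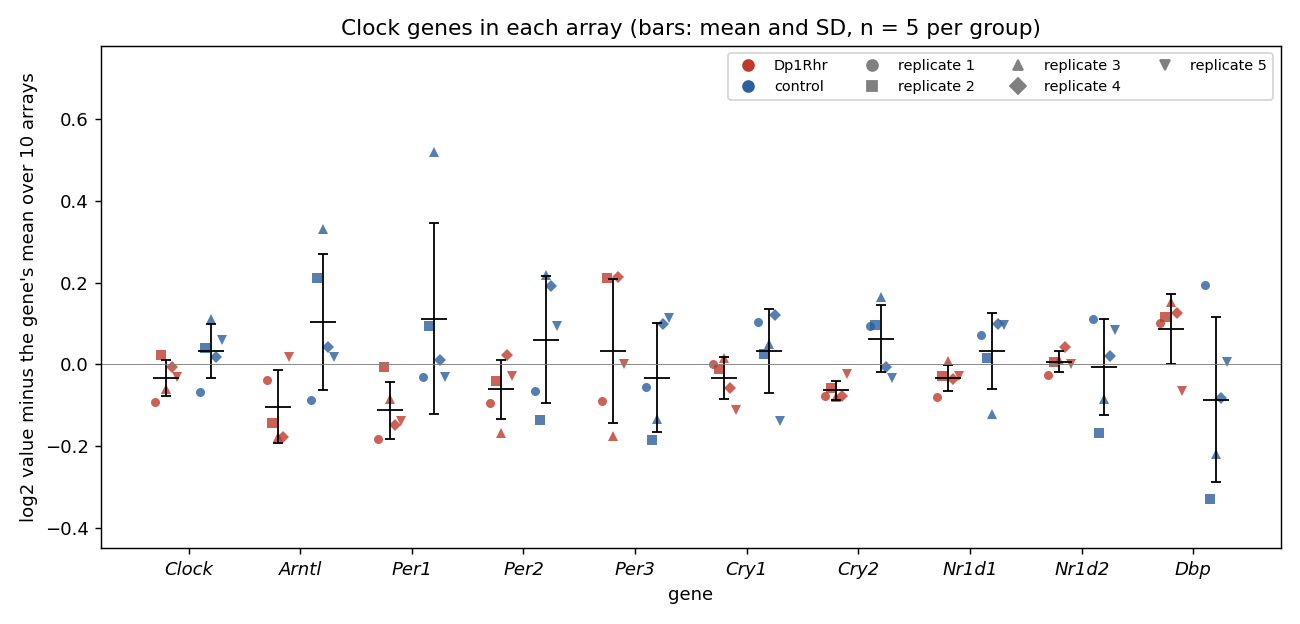
Log2 value minus the mean of the gene over 10 arrays (vertical axis) for each of the 10 clock genes, with Dp1Rhr arrays in red on the left and control arrays in blue on the right, 1 point per mouse, its shape giving the replicate number, and bars for the mean ± SD of 5 arrays. Arntl, Per1 and Cry2 had lower means in Dp1Rhr and Dbp a higher one, the groups overlapped for all 10 genes, and the control arrays were the more widely spread for 9 of the 10 genes.

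The activating pair was examined first. Arntl (chr7:113178471-113314126) was at 8.71, 8.61, 8.57, 8.57 and 8.77 in Dp1Rhr replicates 1 to 5, and at 8.66, 8.96, 9.08, 8.79 and 8.77 in control replicates 1 to 5. Of the Dp1Rhr arrays 3 lay below every control array, while the other 2 lay within the control range. The means were 8.65 ± 0.09 in Dp1Rhr and 8.85 ± 0.17 in control (SD, n = 5 each), a log2 fold change of -0.21 ± 0.07 (SE) with a limma p of 0.0157 and an adjusted p of 0.201. Control replicates 2 and 3 were the highest arrays for Arntl, and without them the log2 fold change was -0.09 (adjusted p = 0.504). Clock (chr5:76209868-76305603), which encodes the partner of ARNTL, was at 10.20, 10.31, 10.23, 10.28 and 10.26 in Dp1Rhr, against 10.22, 10.33, 10.40, 10.31 and 10.35 in control. Only 1 Dp1Rhr array was below all control arrays, and the log2 fold change was -0.07 ± 0.04 (SE, adjusted p = 0.452).

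The Per genes encode the repressors that close the loop, and the signs of their differences were mixed. Per1 (chr11:69095108-69109965) was at 9.21, 9.39, 9.31, 9.25 and 9.25 in Dp1Rhr, against 9.36, 9.49, 9.91, 9.40 and 9.36 in control. Of the Dp1Rhr arrays 4 were below every control array, and control replicate 3 was the highest of all. The means were 9.28 ± 0.07 in Dp1Rhr and 9.51 ± 0.23 in control (SD, n = 5 each), and the log2 fold change of -0.23 ± 0.09 (SE) had an adjusted p of 0.273 by limma. It was -0.12 without control replicate 3 (adjusted p = 0.207) and -0.10 without control replicates 2 and 3 (adjusted p = 0.382). Per2 (chr1:91415977-91459351) was at 8.50, 8.56, 8.43, 8.62 and 8.57 in Dp1Rhr, against 8.53, 8.46, 8.82, 8.79 and 8.69 in control. Of the control arrays 3 lay above every Dp1Rhr array and the other 2 lay within the Dp1Rhr range, and the log2 fold change was -0.12 ± 0.07 (SE, adjusted p = 0.442). Per3 (chr4:150997018-151044707), whose promoter window holds the D-boxes shown above, was at 8.51, 8.81, 8.43, 8.82 and 8.60 in Dp1Rhr, against 8.55, 8.42, 8.47, 8.70 and 8.71 in control. Its arrays were intermixed, its log2 fold change was 0.06 ± 0.08 (SE, adjusted p = 0.807), and the sign turned, to -0.02, without control replicates 2 and 3.

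Of the cryptochromes, which hold CLOCK and ARNTL in the repressed state, Cry2 had the smallest p-value of the 10 genes. Cry2 (chr2:92403646-92434085) was at 9.78, 9.80, 9.78, 9.78 and 9.84 in Dp1Rhr, against 9.96, 9.96, 10.03, 9.86 and 9.83 in control. Of the Dp1Rhr arrays 4 lay below every control array and replicate 5 lay just above the lowest. The means were 9.80 ± 0.02 in Dp1Rhr and 9.92 ± 0.08 in control (SD, n = 5 each), at a log2 fold change of -0.13 ± 0.04 (SE), a limma p of 0.00669 and an adjusted p of 0.139. Without control replicates 2 and 3 it was -0.08 (adjusted p = 0.386). Cry1 (chr10:85131700-85185054) was at 7.51, 7.50, 7.52, 7.45 and 7.40 in Dp1Rhr, against 7.61, 7.53, 7.56, 7.63 and 7.37 in control. Each Dp1Rhr array was below the control mean but none was below all control arrays, and the log2 fold change was -0.07 ± 0.05 (SE, adjusted p = 0.593).

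Nr1d1 and Nr1d2 encode REV-ERB alpha and beta, the repressors of Arntl. Nr1d1 (chr11:98767932-98775377) was at 11.30, 11.35, 11.39, 11.35 and 11.35 in Dp1Rhr, against 11.46, 11.40, 11.26, 11.48 and 11.48 in control. Its Dp1Rhr arrays lay within the control range only through control replicate 3, and the other control arrays lay above every Dp1Rhr array. The log2 fold change was -0.07 ± 0.04 (SE, adjusted p = 0.530). It was larger without control replicate 3 (-0.10, adjusted p = 0.15) and without control replicates 2 and 3 (-0.12, adjusted p = 0.166). Nr1d2 (chr14:18204056-18239106) was at 10.10, 10.13, 10.13, 10.17 and 10.12 in Dp1Rhr, against 10.24, 9.95, 10.04, 10.14 and 10.21 in control. The Dp1Rhr arrays again lay inside the control range, with control replicates 2 and 3 the lowest. The log2 fold change was 0.01 ± 0.05 (SE, adjusted p = 0.944), and it was -0.07 without those arrays.

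Dbp (chr7:45705100-45710203) encodes a PAR bZIP activator whose transcription is driven directly by CLOCK and ARNTL, and its RNA is among the most strongly rhythmic outputs of the clock. It was at 9.74, 9.76, 9.79, 9.77 and 9.58 in Dp1Rhr, against 9.84, 9.31, 9.42, 9.56 and 9.65 in control. Dp1Rhr replicates 1 to 4 stood close together and replicate 5 was lower, while the control arrays spread over 0.52 and enclosed them all. The means were 9.73 ± 0.09 in Dp1Rhr and 9.56 ± 0.20 in control (SD, n = 5 each). The log2 fold change was 0.17 ± 0.08 (SE, 95% confidence interval -0.01 to 0.36), with a limma p of 0.0649 and an adjusted p of 0.373. Control replicates 2 and 3 were the lowest for Dbp, and without them the log2 fold change was 0.05 (adjusted p = 0.839).

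The clock genes were more widely spread among the control arrays. The SD over 5 arrays was larger in control for 9 of the 10 genes, all but Per3, with a median ratio of 2.26 of control over Dp1Rhr, against 56.4% and a median ratio of 1.09 over all genes. The ratio was 3.39 for Per1, 3.41 for Cry2 and 4.70 for Nr1d2. Without control replicates 2 and 3 the SD was larger in control for 6 of the 10 genes, with a median ratio of 1.55, against 44.6% and 0.913 over all genes. The SD was also larger in control for 77.3% of the 22 further clock genes, 84.6% of the 13 hippocampal markers, 81.8% of the 11 glucocorticoid response genes, 90.9% of the 11 immediate early genes, 92.9% of the 14 choroid plexus genes and 100% of the 5 neocortex genes. Other lists went the other way. The share was 27.3% of the 11 habenula and thalamus genes (median ratio 0.749) and 20% of 5 striatum genes (median ratio 0.705). No test was made of this difference in spread.

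The genes around the core loop were read from a list of 26, of which 22 were measured and the rest were not analysed here. Of the 22, 1 was higher in Dp1Rhr at an adjusted p of 0.05 (0.627% of all genes) and 0 were lower (0.176% of all genes). At an unadjusted p under 0.05, 2 were higher (8.55% of all genes) and 3 lower (6.44% of all genes), and FCROS placed 3 in its upper tail (3.4% of all genes) and 1 in its lower tail (1.99% of all genes). The higher one was Dyrk1a, a kinase known to phosphorylate CRY2, which lies inside the duplicated interval and so was at 3 copies. It was at 11.97, 11.97, 12.06, 11.98 and 12.01 in Dp1Rhr, against 11.80, 11.76, 11.71, 11.72 and 11.65 in control. All Dp1Rhr arrays were above all control arrays, and the log2 fold change was 0.27 ± 0.03 (SE, 1.21-fold), with an adjusted p of 0.0110 by limma. The adjusted p was 0.0538 without Dp1Rhr replicate 1 and 0.0683 without control replicates 2 and 3, at log2 fold changes of 0.28 and 0.28. It was 0.0988 with a replicate block, 0.0723 with a choroid plexus score as covariate and 0.391 with an immediate early score, so that the call was lost in each of these fits. With the mean of the Dyrk1a probe sets in place of the brightest, the log2 fold change was smaller, at 0.20 (adjusted p = 0.0257). Without Dyrk1a, 0 of the 21 other genes were called, and their median log2 fold change was -0.03.

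Among the other kinases and ubiquitin ligases of clock proteins, Gsk3b did not overlap between the groups, at 11.19 to 11.22 in Dp1Rhr and 11.24 to 11.31 in control, but the difference was small (log2 fold change -0.07, adjusted p = 0.213). Fbxl21, a ubiquitin ligase subunit for cryptochromes, had a log2 fold change of 0.19 (adjusted p = 0.286). The casein kinases Csnk1d and Csnk1e, which mark PER for degradation, were at -0.02 and -0.03. Of the ROR receptors, which activate Arntl, Rora was at 9.28 to 9.49 in Dp1Rhr and 9.39 to 10.01 in control (log2 fold change -0.25, adjusted p = 0.246) and Rorb at 9.03 to 9.12 in Dp1Rhr and 9.07 to 9.30 in control (-0.13, adjusted p = 0.181). Without control replicate 1, its highest array, Rora was at -0.15. It was at -0.33 without control replicates 2 and 3 (adjusted p = 0.245). With the choroid plexus score as covariate it was at -0.38 (adjusted p = 0.182) and with the immediate early score at -0.49 (adjusted p = 0.4). Rora also marks thalamus and Rorb neocortex. The mean of 11 habenula and thalamus genes, Rora included, was 7.76 to 8.68 in Dp1Rhr and 7.91 to 8.25 in control, but 7 of them were higher and 4 lower by sign. Like Rora, Tcf7l2 (log2 fold change -0.86, adjusted p = 0.0901) and Slc17a6 (-0.24, adjusted p = 0.194) of this list were on the lower side. Lhx9 was at -0.03 (adjusted p = 0.915) and Prkcd at 0.0005 (adjusted p = 0.998). Pou4f1 (0.16), Chrnb4 (0.52) and Nwd2 (0.14) were higher by sign. So were Chrna3 (1.17, adjusted p = 0.286), Tac2 (1.10, adjusted p = 0.276) and Gpr151 (0.60, adjusted p = 0.217). The highest Dp1Rhr arrays were replicates 2, 3 and 4 for every gene of this list but Rora, whichever its sign. For Chrna3 these were at 8.56, 8.03 and 8.82, with Dp1Rhr replicates 1 and 5 at 6.15 and 6.36, against 6.08 to 7.26 in control. Tcf7l2, Slc17a6, Chrna3, Tac2 and Gpr151 were picked after seeing their values, and no gene of the list was called. The mean of 5 neocortex genes was 8.51 to 8.68 in Dp1Rhr and 8.55 to 8.86 in control, and the part of both lists in the values of these receptors was not tested. The PAR bZIP factors related to Dbp did not share its sign, with Tef at -0.07 and Hlf at -0.06, and Nfil3, which represses D-boxes, was at -0.21. For Nfil3 the value was -0.06 without control replicate 3 and -0.02 without control replicates 2 and 3. Ciart, a repressor of CLOCK and ARNTL with a rhythm near that of Dbp, was at 0.15, with arrays at 9.31 to 9.71 in Dp1Rhr and 9.08 to 9.79 in control. None of these passed the test.

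**Figure D2:**
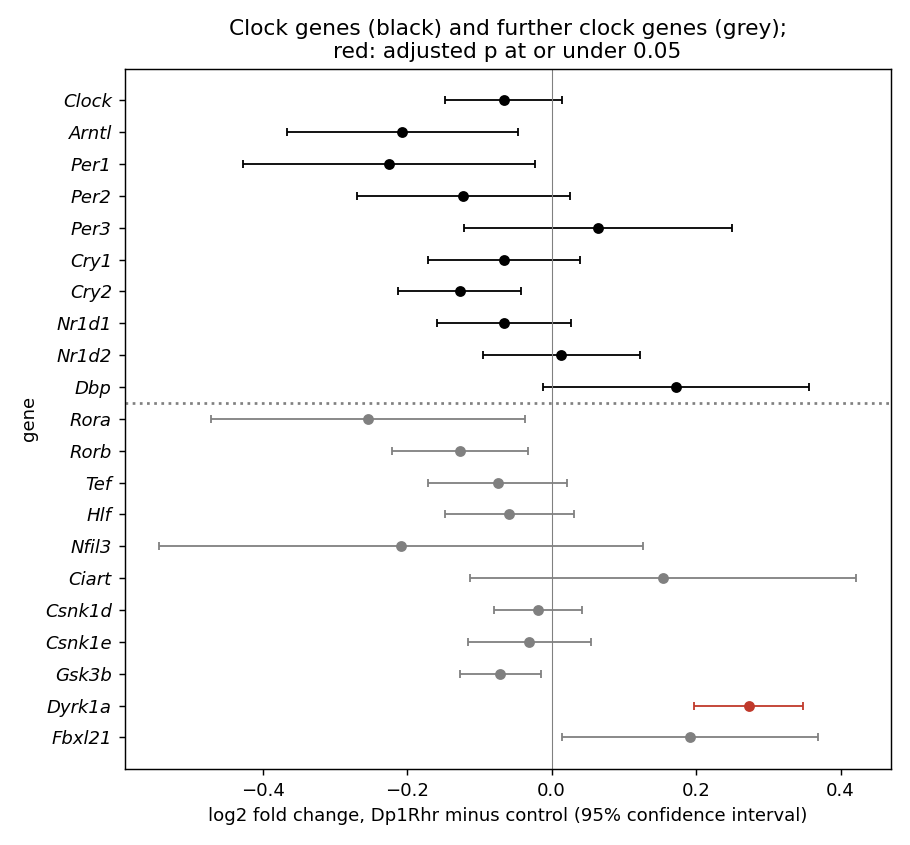
Log2 fold change of Dp1Rhr minus control (horizontal axis) with its 95% confidence interval for the 10 clock genes (black, above the dotted line) and the 11 further clock genes named in the text (grey or red, below). Dyrk1a, at 0.27, is the only gene in red, the colour of an adjusted p at or under 0.05, and before adjustment the intervals of Arntl, Per1, Cry2, Rora, Rorb and Gsk3b lie below 0 and that of Fbxl21 lies above 0.

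The relation of Dbp to Arntl and the Per genes was then followed array by array, since no phase can be measured from 1 dissection per mouse. The log2 difference of Dbp minus Arntl has no meaning as a level, because the probe sets differ, and was compared between arrays only. It was 1.03, 1.15, 1.22, 1.19 and 0.81 in Dp1Rhr, against 1.17, 0.35, 0.34, 0.77 and 0.88 in control. Dp1Rhr replicates 1 to 4 and control replicate 1 lay together at the upper end, Dp1Rhr replicate 5 lay between control replicates 4 and 5, and control replicates 2 and 3 were the lowest. The means were 1.08 ± 0.17 in Dp1Rhr and 0.70 ± 0.36 in control (SD, n = 5 each), a difference of 0.38, and without control replicates 2 and 3 the difference was 0.14. Dbp minus the mean of the Per genes holds the same Dbp values, so its likeness to Dbp minus Arntl is partly built in. It was 1.00, 0.84, 1.07, 0.87 and 0.77 in Dp1Rhr, against 1.02, 0.52, 0.36, 0.60 and 0.72 in control. Its difference of 0.27 became 0.13 without the same arrays. Among the Per genes the difference was 0.40 for Per1, 0.29 for Per2 and 0.11 for Per3. No p-value is given for these differences, since the pairs of genes were picked with earlier results known.

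**Figure D3:**
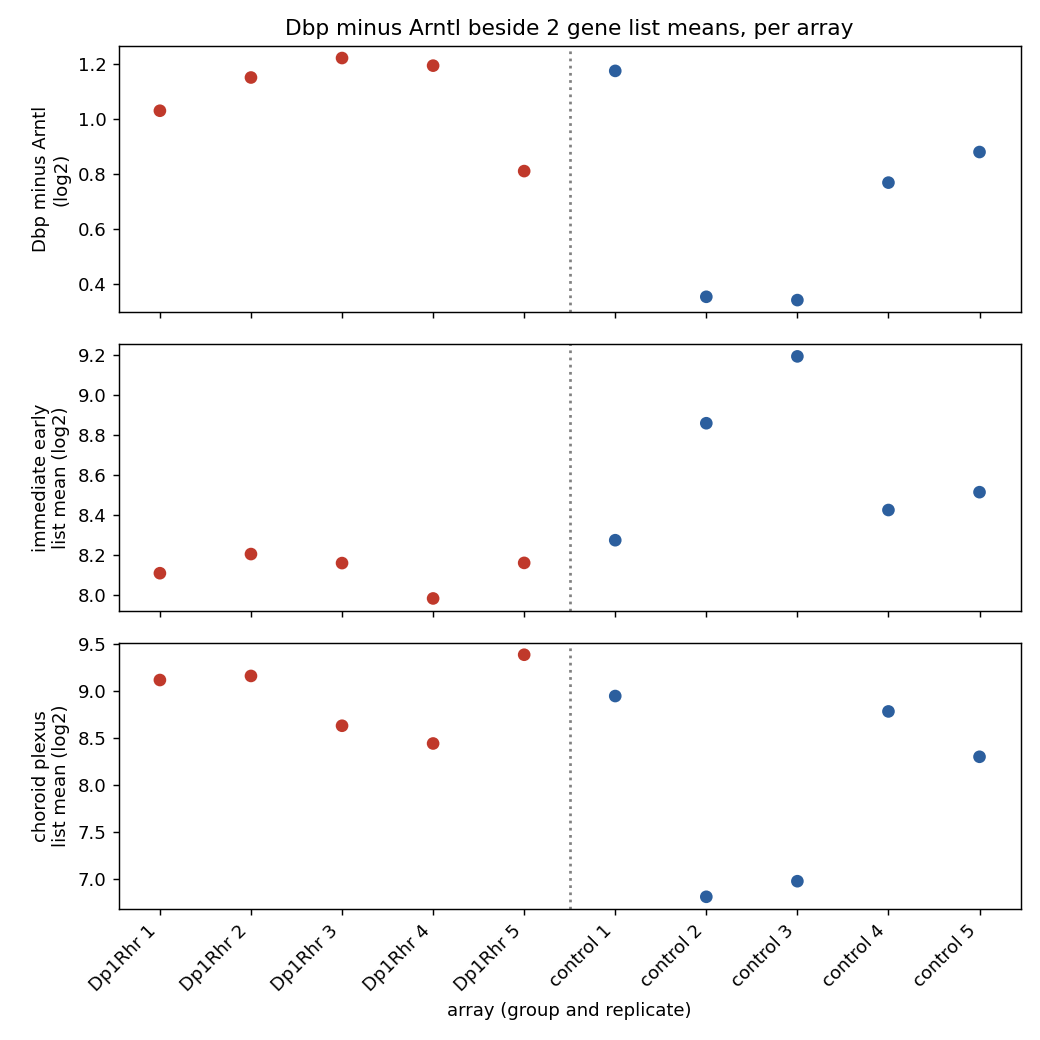
Log2 difference of Dbp minus Arntl (top), log2 mean of the immediate early genes (middle) and log2 mean of the choroid plexus genes (bottom) in each array, with the 5 Dp1Rhr arrays in red on the left and the 5 control arrays in blue on the right. Control replicates 2 and 3 have the lowest Dbp minus Arntl (0.35 and 0.34), the highest immediate early means (8.86 and 9.19) and the lowest choroid plexus means (6.81 and 6.98).

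Dbp and Arntl ran opposite to each other over the 10 arrays. Pearson's r was -0.90 (permutation p = 0.00088, adjusted p = 0.0371 over the 45 pairs of the 10 genes) and Spearman's rho -0.92 (permutation p = 0.00056, adjusted p = 0.0252), all two-sided. With the group means taken out, r was -0.87 (permutation p = 0.00722, adjusted p = 0.184). The 2 arrays farthest from the median of Dbp were control replicates 2 and 3, and without them r was -0.82 (permutation p = 0.0194, adjusted p = 0.340). The negative r was therefore present within groups and without those arrays, but there it did not pass the adjustment over pairs. Leaving out any 1 array gave r between -0.92 and -0.89, and the adjusted p was above 0.05 without Dp1Rhr replicate 3 (0.0684) and without control replicate 4 (0.0707). Among the 11962 other genes at or above the 40th percentile of mean signal, which was 6.82, Dbp had the lowest r of all with Arntl, and Arntl ranked 21 from the lowest with Dbp.

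No pair of Dbp with a Per gene passed the adjustment. Its r with Per1 was -0.62 and its rho -0.61 (permutation p = 0.0530 and 0.0677, adjusted p = 0.20 and 0.34), and r was -0.13 without control replicates 2 and 3. With Per2, r was -0.32 and rho -0.38 (permutation p = 0.361 and 0.277, adjusted p = 0.559 and 0.566), and r was -0.70 without those arrays (adjusted p = 0.340), -0.82 without control replicate 2 alone (adjusted p = 0.0636) and -0.08 without control replicate 3 alone (adjusted p = 0.943). With Per3, r was 0.37 and rho 0.30 (permutation p = 0.288 and 0.405, adjusted p = 0.554 and 0.686), and the sign turned without them, to -0.24. In the rhythm described above, Arntl runs nearly opposite to the Per genes as well as to Dbp. Over these arrays Arntl had an r of 0.80 with Per1, 0.48 with Per2 and -0.46 with Per3. Without control replicates 2 and 3 these were 0.17, 0.62 and -0.01. The signs for Per1 and Per2 were thus the reverse of that rhythm, and the reason was not tested.

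**Figure D4:**
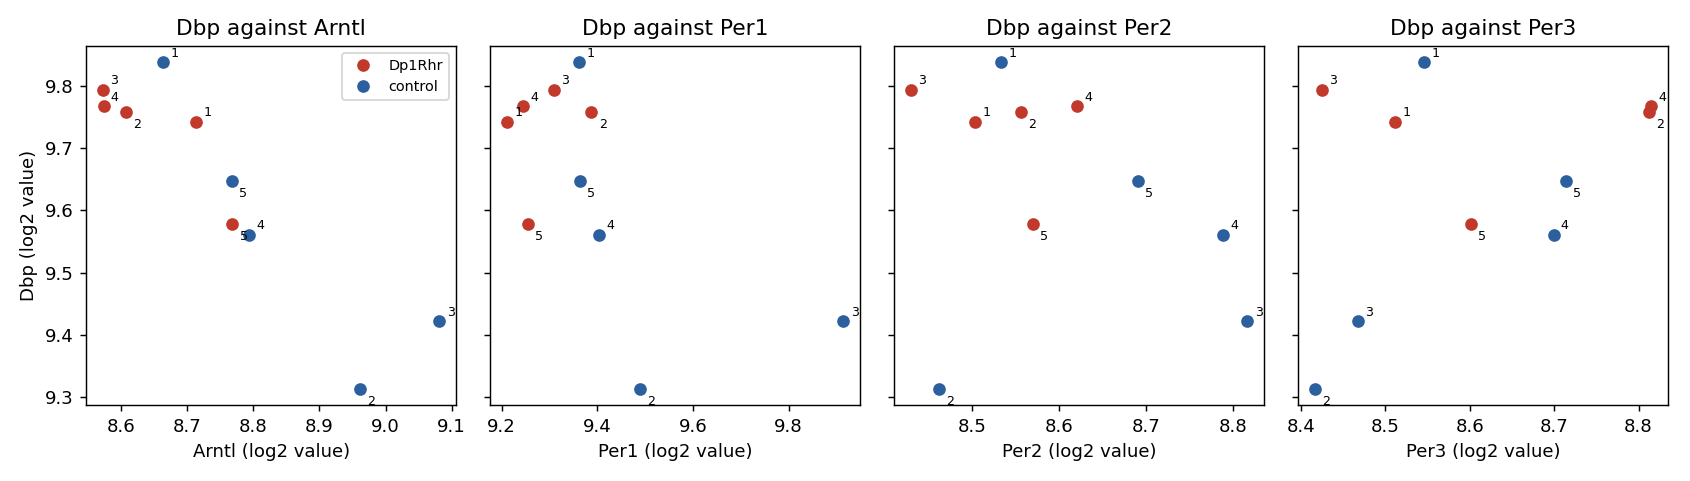
Log2 signal of Dbp (vertical axis) against that of Arntl, Per1, Per2 and Per3 (horizontal axes), 1 point per array with its replicate number, Dp1Rhr in red and control in blue. Dbp falls steadily with Arntl (r = -0.90), and for Per1 control replicates 2 and 3 carry most of the slope.

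Of the 45 pairs, 3 had an adjusted p at or under 0.05 and 10 an unadjusted p under 0.05. Beside Dbp with Arntl these were Per1 with Cry2 (r = 0.81, rho = 0.76, permutation p = 0.00247 and 0.0152, adjusted p = 0.0371 and 0.170) and Clock with Per1 (r = 0.78, rho = 0.79, permutation p = 0.00239 and 0.00890, adjusted p = 0.0371 and 0.134). Without the 2 arrays farthest from the median of the first gene of each pair (control replicate 3 and Dp1Rhr replicate 1), r was 0.64 for Per1 with Cry2 and 0.52 for Clock with Per1. Without control replicates 2 and 3, r was 0.47 (adjusted permutation p = 0.653) and 0.59 (adjusted permutation p = 0.469). Leaving out any 1 array gave an adjusted permutation p of 0.0159 to 0.459 for both pairs, highest without control replicate 3. Arntl also had an r of 0.80 with Per1 and 0.80 with Cry2, and Nr1d2 an r of 0.80 with Dbp, each with an adjusted p of 0.0526. These 3 rested on control replicates 2 and 3, without which r was 0.17, 0.32 and 0.25. With the group means taken out, and likewise without those 2 arrays, 0 of the 45 pairs had an adjusted p at or under 0.05, and 5 had an unadjusted p under 0.05 with the group means taken out.

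**Figure D5:**
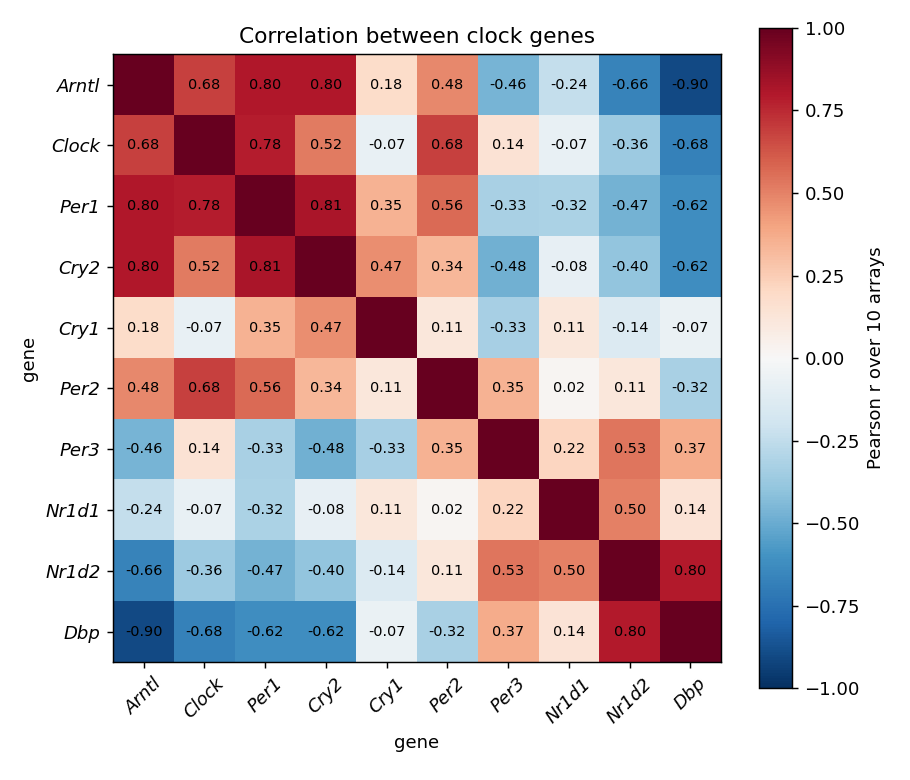
Pearson's r over 10 arrays for each pair of the 10 clock genes, with red for positive and blue for negative values. Arntl, Clock, Per1 and Cry2 form a block of positive values (0.52 to 0.81) and each of them has a negative r with Dbp (-0.90 to -0.62), while Nr1d2 has a positive one (0.80). Much of this rested on control replicates 2 and 3. Without them r within the block was -0.08 (Clock with Cry2) to 0.59 (Clock with Per1). The r with Dbp was then -0.82 for Arntl, -0.49 for Clock, -0.13 for Per1, 0.04 for Cry2 and 0.25 for Nr1d2.

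The genes whose signal ran most like or most opposite to the clock genes over the 10 arrays were listed by r, as a description over arrays that share groups and tissue composition. For Arntl the highest were Eya3 (0.98), a coactivator phosphatase, and the immediate early genes Fos (0.95) and Nr4a1 (0.94), and the lowest beside Dbp were Slc43a3 (-0.90), Map10 (-0.90) and Cxcl12 (-0.89). For Per1 the highest were Gpr19 (0.97), Ipmk (0.96) and Klf2 (0.95), and the lowest Dimt1 (-0.98), Tab1 (-0.94) and Gjc3 (-0.94). For Dbp the highest were Ttc21a (0.93), Zfp521 (0.91) and Emp3 (0.91), and the lowest were Fbf1 (-0.97), Nab2 (-0.96), a corepressor of EGR factors, and Elavl3 (-0.96). The arrays with the most Arntl and Per1 RNA and the least Dbp RNA, control replicates 2 and 3, were those with the highest immediate early and the lowest choroid plexus means given above.

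Of the 11 immediate early genes, limma called 2 lower (0.176% of all genes) and 0 higher in Dp1Rhr (0.627%), 5 had groups that did not overlap (3.52%), and the median log2 fold change was -0.64. At an unadjusted p under 0.05, 10 of the 11 were lower (6.44% of all genes) and 0 higher (8.55%). FCROS placed 10 in its lower tail (1.99%) and 0 in its upper tail (3.4%). The array means of this list did not overlap between the groups, so group and score could hardly be told apart in a fit with the score as a covariate. In that fit the log2 fold changes of Arntl (0.05), Per1 (0.09) and Dbp (-0.08) turned sign, and none was called. None of the 14 choroid plexus genes was called by limma, with 10 higher (8.55% of all genes) and 0 lower (6.44%) at an unadjusted p under 0.05 and 12 in the upper tail of FCROS (3.4%), at a median log2 fold change of 0.88. With their score as a covariate the log2 fold changes were -0.11 for Arntl, -0.09 for Per1, -0.10 for Cry2 and 0.05 for Dbp. Of 11 glucocorticoid response genes, which like Per1 follow the daily corticosterone rhythm, 0 were called by limma, 2 were higher (8.55% of all genes) and 2 lower (6.44%) at an unadjusted p under 0.05, 2 were higher (3.4%) and 2 lower (1.99%) by FCROS, and their means were 10.13 to 10.28 in Dp1Rhr and 10.03 to 10.48 in control. The part of these lists in the values of the clock genes was not tested.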

How the data were processed

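Total RNA from both hippocampi was hybridised to Affymetrix Mouse Gene 1.0 ST arrays. The authors deposited log2 values made with RMA (background correction, quantile normalisation over arrays, summary of probes). Which arrays were normalised together is not given in the sources used here. Besides RMA, limma and mm10 are named in the submitters' processing notes. Quantile normalisation hides a change of all genes at once, and the number of arrays limits the precision. Samples are biological replicates per the labels.

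Of 35556 probe sets, 21789 carried 1 symbol and 1621 several, and 12146 were missing from the annotation given. The first kind was used, with the brightest probe set for 999 genes with more than 1. Coordinates are those of RefSeq genes on GRCm38. The comparison of Dp1Rhr with control used limma 3.58.1 (R 4.3.3, lmFit and eBayes, two-sided), after the code had been tested on simulated data. FCROS, the method of the study, was implemented anew (trim 0.25, limits 0.025 and 0.975) as an alternative, since it calls a near-fixed share of genes. Correlations used 100000 permutations over 10 arrays, and exact ones on fewer or within groups. Alternatives were a replicate block, each array left out in turn, control replicates 2 and 3 left out together, renormalisation, centring, probe set and signal filters, trend, array weights, and choroid plexus and immediate early scores as covariates. The clock genes, the further lists and the tests were chosen with earlier results of these data known. Named genes were all 10 clock genes, further clock genes by p-value or fixed role, and the 3 genes of highest and of lowest r for Dbp, Arntl and Per1.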

Additional observations from a re-analysis of the deposited data

Results flagged for a closer look

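Of 46 groups of 5 arrays examined, 3 held an array far from its group, a share near the 1 in 20 or so that chance alone gives. Per1 in control replicate 3 was at 9.915, against 9.363 to 9.488 in the other control arrays, and this array also had the highest immediate early mean. Dbp in Dp1Rhr replicate 5 was at 9.578, against 9.743 to 9.794 in the other Dp1Rhr arrays. Ciart in control replicate 1 was at 9.792, against 9.078 to 9.246 in the other control arrays, the same array that had the highest Dbp value.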

How the results depend on the processing

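No clock gene of the 10 was called by limma under any of 20 alternatives, and the lowest adjusted p was 0.0787, for Cry2. FCROS placed 2 of them lower, and of the further clock genes 3 higher and 1 lower. The replicate numbers did not pair the samples: deviations of arrays with 1 number correlated at -0.337 to 0.124, and 1 of 5 correlated best with its own number. With the replicate block 0 of the 10 clock genes were called, and 0 further clock genes were higher, since Dyrk1a had an adjusted p of 0.0988.

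The number of further clock genes higher, 1, was also 0 without control replicates 2 and 3 together, with the choroid plexus score (Dyrk1a adjusted p = 0.0723) and with the immediate early score (0.391), and 0 to 1 when each array was left out. The difference of Dbp minus Arntl was -0.1271 and that of Dbp minus the Per mean -0.05702 with the immediate early score. The r of Dbp with Arntl was -0.87 with group means removed, -0.823 without control replicates 2 and 3, and -0.924 to -0.893 when each array was left out, and that of Dbp with Per3 was -0.239 without control replicates 2 and 3.

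Some log2 fold changes turned sign, small ones under several settings and larger ones with the immediate early score. Nr1d2 was at -0.02676 to 0.04351 when each array was left out (-0.02676 without control replicate 2, -0.005819 without control replicate 3), -0.06622 without both, -0.01055 with centred arrays, -0.06791 with the choroid plexus score, -0.1247 with the immediate early score and -0.003716 with array weights. Per3 was at -0.01983 without control replicates 2 and 3, -0.01122 with the choroid plexus score and -0.08557 with the immediate early score. Nfil3 was at 0.007129 and Csnk1e at 0.009006 with the choroid plexus score. With the immediate early score Clock was at 0.01403, Arntl at 0.04753, Per1 at 0.09026, Dbp at -0.07963, Nfil3 at 0.3026 and Ciart at -0.1176. None of these was called, and the cause was not tested. A second quantile normalisation moved the median of all genes by -0.006 and centring by -0.02. With 5 arrays a group, intervals such as -0.37 to -0.05 for Arntl set the size of change that could be seen.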
